A study of Homo sapiens with 9 samples.

Results

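The genes described here act in S phase and DNA replication. A list of 44 genes was read from the probe annotation of a human expression array: licensing factors, helicase activators, polymerases, clamp and ligation factors, enzymes of deoxynucleotide supply, G1/S regulators and chromatin factors. All 44 had a probe, and 43 of the 12245 genes tested were members. CCNE2, which encodes cyclin E2, had a probe detected on 0 of 9 arrays and was not tested. RNA came from SaOS2, an osteoblast-like line from a human osteosarcoma that lacks functional retinoblastoma protein. The cells were made to express an antisense RNA to APC, a scaffold protein that keeps beta-catenin low, and all 3 groups were grown with G418 and hygromycin, which the growth protocol gives without saying which clone or pool was used. The recovery group had doxycycline at 1 µg/ml for 3 days and then medium without it for 3 days, the doxycycline group was harvested after its 3 days in the drug, and the control group was untreated. Each group had 3 arrays. Doxycycline-treated cells without the construct and untreated cells harvested with the recovery cells were not analysed here, so the antisense RNA, the drug and time in culture cannot be told apart. The labels do not state that replicates were separate cultures, and the spread that the p-values measure may therefore be technical.

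Replication begins in G1, when the origin recognition complex, CDC6 and CDT1 load the MCM helicase onto DNA. In S phase CDC45, the GINS complex and MCM10 help turn it into an active helicase, and polymerases alpha, delta and epsilon copy the strands with the clamp PCNA. Many of these genes are transcribed by E2F factors, which the retinoblastoma protein restrains in most cells. Genes of mitosis follow later and often carry another promoter element, the cell cycle genes homology region (CHR).

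Levels are log2 of the background-corrected, normalised probe signal, and a difference is a log2 difference ± standard error from limma, over 3 arrays in each group. A gene was called at a Benjamini-Hochberg adjusted p under 0.05, over all genes tested. Levels of different probes are not compared. Between 20141 and 21317 probes were detected per array. Of the tested members, 42 were detected on all 9 arrays, including the S phase markers MCM2, PCNA and RRM2, and the exception was GINS1, detected on 1 of 3 recovery, 2 of 3 doxycycline and 2 of 3 control arrays. The osteoblast genes RUNX2, SP7, ALPL, IBSP and COL1A1 were detected on all 9 arrays, BGLAP on 1 and SPP1 on 0. The single probe of the antisense target, APC, was near background, with 5.48, 5.28 and 5.48 in recovery, 5.43, 5.44 and 5.40 in doxycycline and 5.14, 5.04 and 5.68 in control cells (doxycycline minus control 0.13 ± 0.16, limma adjusted p = 0.62), and its strand was not analysed here. The probe of RB1, the retinoblastoma gene, was detected on 0 of 9 arrays.

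Doxycycline replicate 2 stood apart from the other arrays. It was the lowest of the 9 arrays for 26 of 43 members (60.5%), against 28.2% of all genes tested. Its members lay a median of -0.29 from the mean of the other 2 doxycycline arrays, against -0.04 over all genes. Of the members 33 of 43 were lower, against 6587 of all 12245 genes. POLE, LIG1 and ORC6 were among the members highest of all 9 arrays on this replicate. The median SD of the members was 0.076 among recovery, 0.195 among doxycycline and 0.082 among control arrays, against 0.119, 0.217 and 0.117 over all genes, so the wider doxycycline spread was not particular to the members. Counts of calls over all members and over the lists of further genes, and estimates that leaving out this array moved by over 1.5 times, are given with and without it.

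**Figure D1:**
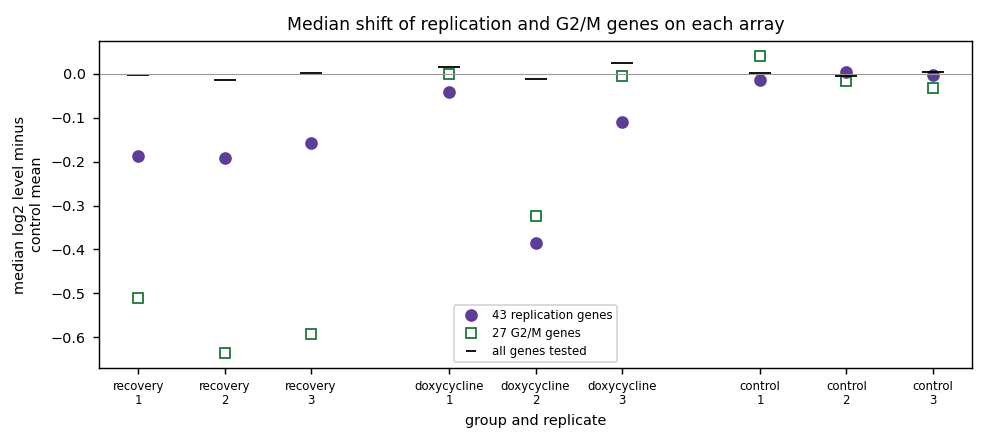
Median log2 level relative to the control mean of each gene, on each array, for the 43 tested replication members (filled circles), the 27 tested G2/M genes (open squares) and all tested genes (dashes). Recovery arrays lie between -0.19 and -0.16 for the members and between -0.64 and -0.51 for G2/M genes, and doxycycline replicate 2 lies at -0.39 for the members.

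Recovery cells set against control cells had lower RNA for 5 members: DUT, TYMS and RRM2 of deoxynucleotide supply, the polymerase epsilon subunit POLE2 and the helicase factor CDC45. No member was called higher. The called share of 11.6% lower lies near the 9.06% of all genes called lower in this comparison, and 10.2% of all genes were called higher. Over the 43 members 32 estimates were below 0, with a median of -0.17, against -0.01 over all genes. All 3 recovery arrays lay below all 3 control arrays for 19 members (44.2%) and above them for 4 (9.30%), against 23.5% and 23.6% of all genes. In bulk RNA, fewer cells in S phase and less RNA per cell cannot be told apart.

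**Figure D2:**
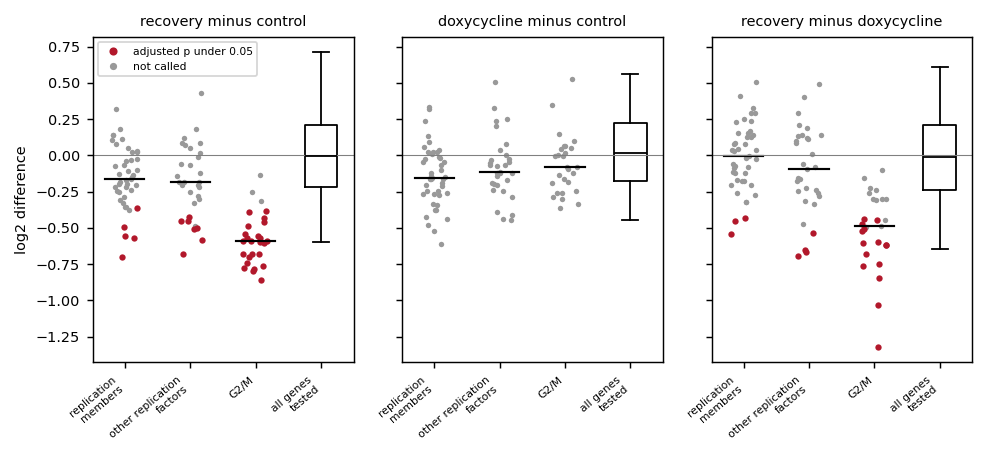
Log2 difference of each tested replication member, each of 31 further replication genes and each of 27 G2/M genes (points, red where adjusted p was under 0.05; horizontal lines are medians), with all tested genes as a box of quartiles and whiskers at the percentiles 5 and 95, in a panel for each comparison. In recovery minus control the members have a median of -0.17 with 5 red points, and the G2/M genes a median of -0.59 with 24.

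The promoters of 5 of the 8 members called in any comparison held an E2F motif, and those of MCM2 and PCNA, which were not called, held one too. Stretches of 100 bases are printed 5′ to 3′ on the gene's strand from RefSeq, build GRCh38.p14, with the matched letters in capitals. The motifs searched, on both strands of 250 bases before to 50 after each start, were TTTCCCGC, TTTGGCGC, TTTCGCGC and TTTGCCGC, and a palindromic run can hold overlapping matches. The stretches lie at chr15:48332097-48332196 for DUT, chr18:657553-657652 for TYMS, chr14:49688212-49688311 for POLE2, chr19:48170405-48170504 for LIG1, chr12:132687343-132687442 for POLE, chr3:127598325-127598424 for MCM2 and chr20:5126628-5126727 for PCNA. POLE2, LIG1, POLE and PCNA lie on the minus strand. Each shows where the match stands in a member with array values below.
DUT: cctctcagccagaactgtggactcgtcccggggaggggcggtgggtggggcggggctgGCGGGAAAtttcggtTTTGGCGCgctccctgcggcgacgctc
TYMS: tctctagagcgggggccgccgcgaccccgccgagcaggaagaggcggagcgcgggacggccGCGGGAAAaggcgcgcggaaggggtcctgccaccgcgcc
POLE2: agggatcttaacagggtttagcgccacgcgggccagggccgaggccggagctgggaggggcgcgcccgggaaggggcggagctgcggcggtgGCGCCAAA
LIG1: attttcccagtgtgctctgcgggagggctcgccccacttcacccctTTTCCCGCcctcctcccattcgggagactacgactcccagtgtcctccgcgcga
POLE: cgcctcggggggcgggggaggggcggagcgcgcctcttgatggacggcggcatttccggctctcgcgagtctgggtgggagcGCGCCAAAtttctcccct
MCM2: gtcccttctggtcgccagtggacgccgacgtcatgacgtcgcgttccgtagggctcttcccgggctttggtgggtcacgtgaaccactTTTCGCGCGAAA
PCNA: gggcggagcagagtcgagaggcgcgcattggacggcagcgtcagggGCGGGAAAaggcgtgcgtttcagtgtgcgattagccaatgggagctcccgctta
The DUT window held 2 matches, the first starting 42 bases before the start, and the MCM2 window held 2 that overlap just after it. The match began 39 bases before the start in TYMS, 114 in LIG1, 18 in POLE and 59 in PCNA, and crossed the start in POLE2. A match is a run of letters and not a measured binding site.

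An E2F match stood in 22 of the 39 members with a window (56.4%), against 650 of 9872 tested genes with one (6.58%) and 3 of 22 G2/M genes (13.6%). The CHR motif TTTGAA, in contrast, stood in 2 of 39 members (5.13%), 17 of 22 G2/M genes (77.3%) and 14.7% of tested genes. Over all 35116 windows the shares were 3.31% for E2F and 15.2% for CHR. Within the list, the match stood in 5 of 8 called members and 17 of 31 members that were not called. RRM2, CDC45 and POLD1 were called and held no E2F match in this window.

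**Figure D3:**
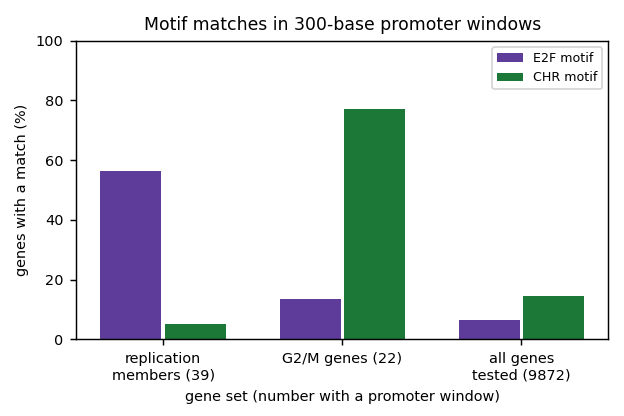
Percent of genes with an E2F or a CHR motif in any of their promoter windows, among 39 members, 22 G2/M genes and 9872 tested genes. The E2F motif stands in 56.4% of these members and the CHR motif in 77.3% of these G2/M genes.

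Licensing factors had no called member among 11 in recovery minus control, with a median of -0.07. MCM2, a subunit of the MCM helicase, had levels of 10.65, 10.94 and 10.70 in recovery, 10.89, 10.55 and 11.09 in doxycycline and 10.85, 10.75 and 10.90 in control cells. The recovery and control arrays overlapped, and the 95% interval of the difference ran from -0.40 to 0.25 (limma adjusted p = 0.78). MCM5, another subunit, had 10.33, 10.42 and 10.35 in recovery, 10.80, 10.42 and 10.70 in doxycycline and 10.65, 10.57 and 10.64 in control cells. Every recovery array of MCM5 was below every control array, and the difference of -0.25 ± 0.12 was not called (limma adjusted p = 0.18). MCM7 had 12.46, 12.34 and 12.46 in recovery, 12.61, 12.67 and 12.51 in doxycycline and 12.55, 12.65 and 12.65 in control cells, again without overlap of recovery and control and without a call (-0.20 ± 0.11, limma adjusted p = 0.25). MCM4 and MCM6 were likewise below control on every recovery array, at -0.25 and -0.24. ORC1 and ORC6 of the origin recognition complex, the loaders CDC6 and CDT1, geminin (GMNN), which inhibits CDT1, and MCM3 had recovery minus control differences from -0.15 to 0.11.

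Helicase activation gave 1 called member of 5. CDC45, part of the active helicase, had levels of 10.48, 10.45 and 10.59 in recovery, 10.88, 10.85 and 10.75 in doxycycline and 10.85, 10.97 and 10.79 in control cells. Recovery arrays lay below all the others, by -0.36 ± 0.11 from control (1.29-fold lower, limma adjusted p = 0.039). MCM10, which binds the helicase as it is activated, had 10.39, 10.30 and 10.30 in recovery, 10.59, 10.14 and 10.62 in doxycycline and 10.48, 10.79 and 10.58 in control cells. Its recovery and control arrays did not overlap and it was not called (-0.28 ± 0.15, limma adjusted p = 0.21). The GINS complex subunits differed between recovery and control by -0.17 for GINS1, -0.35 for GINS2 and 0.18 for GINS3, with no call.

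Polymerase subunits gave 1 called member of 7, with a median of -0.13. POLE2, an accessory subunit of polymerase epsilon, had levels of 8.88, 8.76 and 8.67 in recovery, 9.07, 8.78 and 9.00 in doxycycline and 9.31, 9.42 and 9.24 in control cells. All recovery and all doxycycline arrays lay below control, by -0.55 ± 0.12 in recovery (1.47-fold lower, limma adjusted p = 0.0083). POLD3, an accessory subunit of polymerase delta, had 9.77, 9.77 and 9.64 in recovery, 9.41, 9.74 and 9.35 in doxycycline and 9.19, 9.46 and 9.57 in control cells. Every recovery array was above every control array, and the largest recovery minus control estimate among the members, 0.32 ± 0.14, was not called (limma adjusted p = 0.15). POLA1 and POLA2 of polymerase alpha, its primase subunit PRIM1 and the catalytic subunits POLD1 and POLE differed by -0.22 to -0.03.

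PCNA, the sliding clamp, had levels of 12.39, 12.46 and 12.31 in recovery, 12.30, 11.91 and 12.50 in doxycycline and 12.44, 12.36 and 12.28 in control cells. Recovery and control overlapped, with an interval from -0.29 to 0.35 for their difference of 0.03 (limma adjusted p = 0.91). The other kept probe of PCNA gave -0.15. None of the 8 clamp, loader and ligation members was called in this comparison, and their median was 0.03. RFC5, a subunit of the clamp loader, had 10.51, 10.52 and 10.46 in recovery, 10.64, 9.99 and 10.44 in doxycycline and 10.68, 10.78 and 10.64 in control cells. Recovery lay below control on every array without a call (-0.20 ± 0.15, limma adjusted p = 0.41). LIG1, the ligase that joins Okazaki fragments, differed from control by -0.31 ± 0.12 in recovery (limma adjusted p = 0.094). The loader subunits RFC2, RFC3 and RFC4, the flap nuclease FEN1 and the single-strand binding subunit RPA2 had estimates from -0.11 to 0.14.

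Deoxynucleotide supply held 3 of the 5 called members, among 5 tested, beside 9.06% of all genes called lower. The 3 became 2 without any 1 control array and 1 without recovery replicate 1 or 3, beside 5.35% to 6.14% of all genes. Without doxycycline replicate 1 or 2 they became 4, beside 11.5% and 15.3%. DUT, which removes dUTP and makes the dUMP used for dTMP, had levels of 9.07, 9.11 and 9.17 in recovery, 9.58, 9.04 and 9.50 in doxycycline and 9.75, 9.81 and 9.88 in control cells. It showed the largest fall among the members, by -0.70 ± 0.14 (1.62-fold lower, limma adjusted p = 0.0057), and its other kept probes gave -0.24 and -0.75. TYMS, thymidylate synthase, had 11.25, 11.51 and 11.20 in recovery, 11.74, 11.41 and 11.78 in doxycycline and 11.88, 12.04 and 11.75 in control cells. Recovery lay below control on every array, by -0.57 ± 0.14 (1.48-fold lower, limma adjusted p = 0.017). RRM2, the S phase subunit of ribonucleotide reductase, had 9.55, 9.69 and 9.63 in recovery, 9.77, 9.40 and 9.60 in doxycycline and 10.24, 10.03 and 10.07 in control cells. It was lower in recovery by -0.49 ± 0.13 (1.40-fold lower, limma adjusted p = 0.020), with recovery and doxycycline arrays interleaved below control. TK1, thymidine kinase, differed by -0.38 ± 0.16 (limma adjusted p = 0.14) and the large reductase subunit RRM1 by -0.22 ± 0.13 (limma adjusted p = 0.27).

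G1/S regulators and chromatin factors had 0 called members among 7. CCNE1, cyclin E1, had levels of 8.32, 8.28 and 8.26 in recovery, 8.31, 8.53 and 8.62 in doxycycline and 8.73, 8.58 and 8.62 in control cells. All recovery arrays were below control, by -0.36 ± 0.12 (limma adjusted p = 0.054). UHRF1, which helps maintain DNA methylation after replication, had 12.36, 12.22 and 12.29 in recovery, 12.57, 12.34 and 12.46 in doxycycline and 12.53, 12.48 and 12.45 in control cells, without overlap of recovery and control (-0.20 ± 0.11, limma adjusted p = 0.26). The other kept probe of UHRF1 gave 0.08. CHAF1B, a subunit of the histone chaperone CAF-1, had 10.73, 10.66 and 10.69 in recovery, 10.68, 10.55 and 10.72 in doxycycline and 11.07, 10.98 and 11.02 in control cells. Both treated groups lay below every control array, by -0.33 ± 0.11 in recovery (limma adjusted p = 0.052) and -0.37 ± 0.11 in doxycycline (limma adjusted p = 0.090). CHAF1A, the partner subunit, had 8.17, 8.27 and 8.54 in recovery, 8.43, 8.11 and 8.47 in doxycycline and 8.57, 8.48 and 8.45 in control cells, which overlap. E2F1, DTL, which targets CDT1 for degradation, and SLBP, which binds histone mRNA, differed between recovery and control by -0.04, -0.13 and 0.14.

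**Figure D4:**
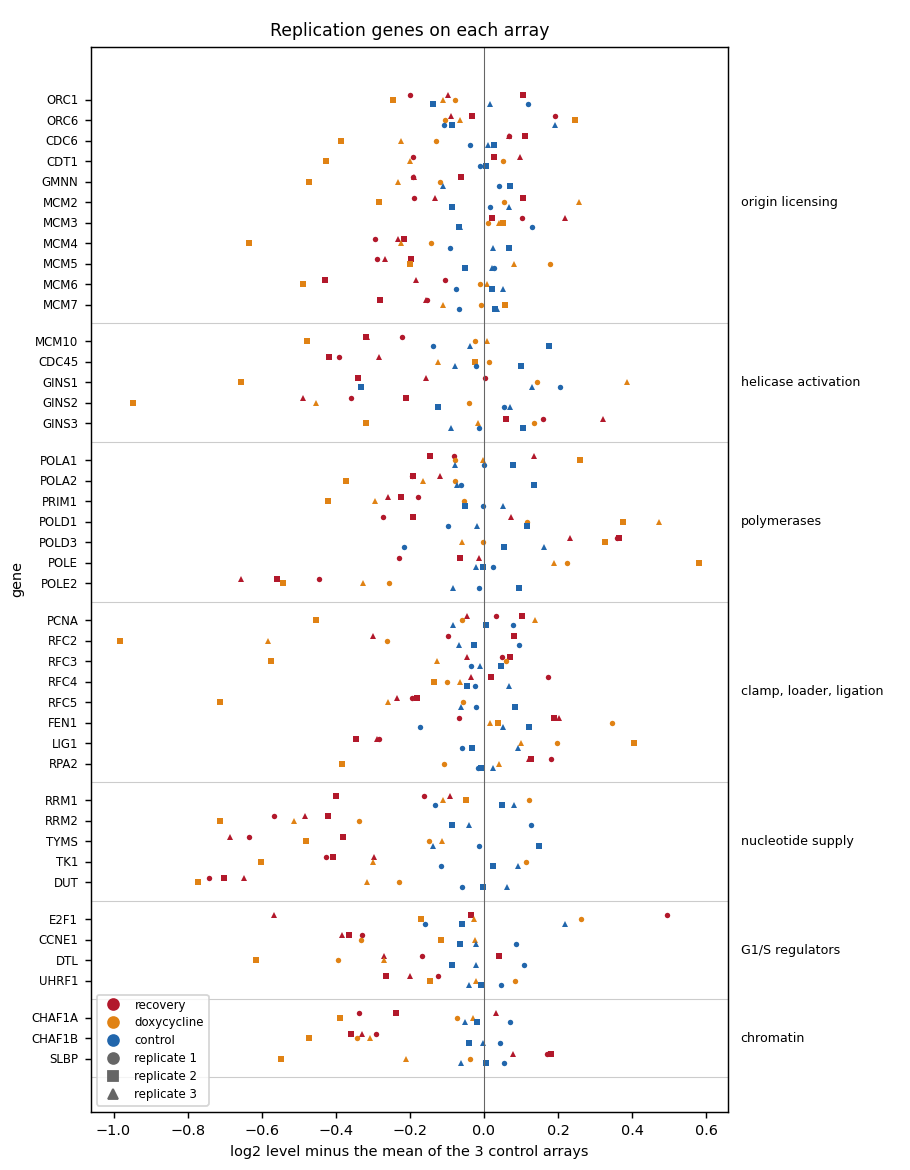
Log2 level of each tested member on each array minus the mean of its 3 control arrays, in rows ordered by role, with groups by colour and replicates by symbol. Doxycycline replicate 2 (orange squares) is the lowest array for 26 of the 43 members, and the recovery arrays of DUT, TYMS, RRM2 and POLE2 lie below their control arrays.

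The 3 groups shared 1 estimate of the spread, so that doxycycline arrays also enter the recovery and control test. Without doxycycline replicate 2, 9 members were called lower and 1 higher, against 15.3% of all genes lower and 16.2% higher, and POLD3 was the one higher. The count of 5 also became 8 without doxycycline replicate 1 (18.6%), against 11.5% of all genes called lower. It was 3 without control replicate 1, 2 or 3 (6.98%), against 5.92%, 5.51% and 5.35% of all genes. Without recovery replicate 1 or 3 it was 2 (4.65%), against 6.14% and 5.75%. Among the 21 alternatives that set no minimum difference, POLE2 and DUT were called in 21, TYMS in 18, RRM2 in 17 and CDC45 in 11.

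No member was called between doxycycline and control cells, where 2.07% of all genes were called, 1.71% higher and 0.359% lower. At an unadjusted p under 0.05 there were 13 members, or 30.2%, against 23.6% of all genes. Of these, 2 were above control (4.65%, against 13.6% of all genes) and 11 below it (25.6%, against 10.0%). These unadjusted counts were not repeated without doxycycline replicate 2, the lowest of the 9 arrays for 26 of 43 members. The member median was -0.16, against 0.01 over all genes. All 3 doxycycline arrays lay below control for 12 members (27.9%) and above it for 3 (6.98%), against 11.1% and 15.3% of all genes. The lowest estimate was that of the clamp loader subunit RFC2, with 7.92, 8.09 and 7.71 in recovery, 7.75, 7.03 and 7.43 in doxycycline and 8.11, 7.99 and 7.95 in control cells (-0.61 ± 0.17, limma adjusted p = 0.090). The other kept probe of RFC2 gave -0.30. RRM2 was at -0.52 ± 0.13 (limma adjusted p = 0.061), and the highest estimate was that of POLE, at 0.33 ± 0.13 (limma adjusted p = 0.17). The POLE estimate was 0.21 without doxycycline replicate 2, when POLD1 had the highest, at 0.30. Without doxycycline replicate 2 the median was -0.06 and 0 members were called, against 1.66% of all genes called higher and 0.314% lower. Without doxycycline replicate 1, 8 members (18.6%) were called lower, against 8.75% of all genes called lower and 12.7% called higher: GINS2, POLE2, RFC2, RFC5, RRM2, TK1, DUT and CHAF1B.

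Between recovery and doxycycline cells 3 members were called lower, LIG1, POLD1 and POLE, and none higher. The share of 6.98% stands beside 9.69% of all genes called lower and 8.71% called higher, and the member median was -0.003, or -0.07 without doxycycline replicate 2. LIG1 had levels of 8.78, 8.71 and 8.77 in recovery, 9.26, 9.46 and 9.16 in doxycycline and 9.00, 9.03 and 9.15 in control cells. The doxycycline arrays were highest and the recovery arrays lowest, with no overlap, and recovery was lower by -0.54 ± 0.12 (1.45-fold lower, limma adjusted p = 0.0091). POLD1, the catalytic subunit of polymerase delta, had 8.68, 8.76 and 9.02 in recovery, 9.07, 9.32 and 9.42 in doxycycline and 8.85, 9.07 and 8.93 in control cells (recovery minus doxycycline -0.45 ± 0.14, limma adjusted p = 0.042). POLE, the catalytic subunit of polymerase epsilon, had 8.90, 9.07 and 9.12 in recovery, 9.36, 9.71 and 9.32 in doxycycline and 9.16, 9.13 and 9.11 in control cells (-0.43 ± 0.13, limma adjusted p = 0.040). For all 3 genes the recovery arrays lay below every doxycycline array. Without doxycycline replicate 2 the calls of POLD1 (-0.43, limma adjusted p = 0.056) and POLE (-0.31, limma adjusted p = 0.057) ended, and LIG1 (-0.46), MCM5 (-0.38), TYMS (-0.44) and DUT (-0.43) were called lower, against 11.7% of all genes lower and 10.2% higher. Without doxycycline replicate 1, 3 members were called lower and 3 higher, against 14.2% and 12.7% of all genes. The count called lower was 1 without any 1 control array, against 7.74% to 8.25% of all genes. It was also 1 without doxycycline replicate 3, against 6.08%, and without recovery replicate 1 or 2, against at most 5.72%. Of the same 21 alternatives, LIG1 was called in 21, POLD1 in 9 and POLE in 8. RFC2, with the arrays given above, had the highest estimate at 0.50 ± 0.17 (limma adjusted p = 0.066), which was 0.32 without doxycycline replicate 2, when POLD3 had the highest, at 0.35. The other kept probe of RFC2 gave 0.29. These 3 comparisons share arrays in pairs, so their values are not independent of each other.

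**Figure D5:**
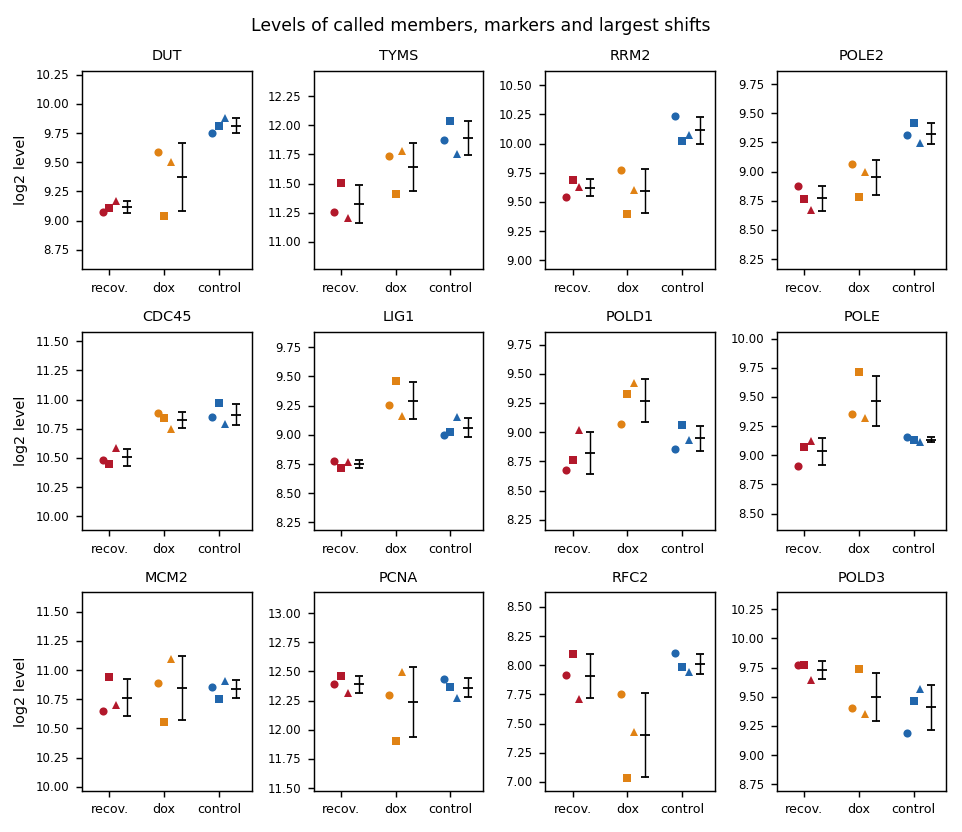
Log2 level on each array of the 8 members called in any comparison and of MCM2, PCNA, RFC2 and POLD3, with recovery left, doxycycline in the middle and control right, replicates by symbol and bars for the mean ± SD of 3 arrays. Each panel spans the same range of levels around its own values, and recovery arrays of DUT, TYMS, RRM2, POLE2 and CDC45 lie below control, those of LIG1, POLD1 and POLE below doxycycline.

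Genes outside the list gave a wider view of the replication fork and of the cell cycle. Of 31 further replication genes tested, 7 were called lower in recovery than in control and 0 higher, with a median of -0.19. The 7 are 22.6%, beside the 9.06% of all genes called lower. Without doxycycline replicate 2, 9 were called lower (29.0%) and 1 higher (3.23%), against 15.3% and 16.2% of all genes. The count called lower was 2 or 3 without any 1 control or recovery array, against 4.89% to 6.14% of all genes. The 7 included RNASEH2A, a subunit of the enzyme that removes ribonucleotides from DNA (-0.68 ± 0.14), TICRR, which helps load CDC45 (-0.59 ± 0.12), and RPA1, the large single-strand binding subunit (-0.51 ± 0.13). Of 9 further nucleotide supply genes, 1 was called lower (CTPS1, CTP synthase, -0.34 ± 0.11), of 18 further E2F and G1/S genes 1 (CCNA2, cyclin A2, -0.54 ± 0.14), and of 13 S phase repair genes 0. Without doxycycline replicate 2 these 3 counts were 1, 3 and 1, against 15.3% of all genes called lower, and without any 1 control or recovery array they were all 0. The nucleotide supply count was also 0 without doxycycline replicate 3, and the repair count 1 without doxycycline replicate 1.

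The G2/M genes, read on the same arrays, had 24 of 27 called lower in recovery than in control (88.9%), beside 9.06% of all genes. All 27 estimates were below 0, with a median of -0.59. The count was also 24 without doxycycline replicate 2, beside 15.3% of all genes called lower. It was 12, 13 and 15 without control replicate 1, 2 and 3, beside 5.92%, 5.51% and 5.35% of all genes. Without recovery replicate 1, 2 and 3 it was 15, 11 and 13, beside 6.14%, 4.89% and 5.75%. The genes called lower with all 9 arrays included TOP2A, which untangles chromosomes (-0.68 ± 0.10), KIF20A, a kinesin of cytokinesis (-0.86 ± 0.14), and CCNB2, cyclin B2 (-0.76 ± 0.13). Between recovery and doxycycline 15 were called lower (55.6%), beside 9.69% of all genes, with a median of -0.48. Without doxycycline replicate 2 the count was 25, beside 11.7% of all genes called lower, and the median was -0.62. The count was 9 without doxycycline replicate 3 or recovery replicate 3, beside 6.08% and 6.36% of all genes. Without recovery replicate 2 it was 10, beside under 6.08% of all genes. Between doxycycline and control 0 were called, with or without doxycycline replicate 2. Without doxycycline replicate 1, 4 were called, 2 in each direction, beside 12.7% of all genes higher and 8.75% lower. Relative to the mean of the other 2 doxycycline arrays, doxycycline replicate 2 lay a median of -0.29 away for the members and -0.30 for the G2/M genes. It was lower for 33 of 43 and 22 of 27, against 6587 of all 12245 genes. This array was below every other doxycycline and every control array for 31 of 43 members and 17 of 27 G2/M genes, against 4445 of all genes. Of all 9 arrays it was the lowest for 2 of 27 G2/M genes (7.41%), against 60.5% of members and 28.2% of all genes. A list of G1 inhibitors had 5 genes tested, 4 of them inhibitors of cyclin-dependent kinases and the other the pocket protein RBL2. The kinase inhibitors CDKN1A (1.21 ± 0.15) and CDKN2B (0.99 ± 0.13) were called higher in recovery than in control, beside 10.2% of all genes called higher. Of the 5 estimates 3 were above 0 and 2 below it, the lowest at -0.24. Without doxycycline replicate 2, 2 of the 5 were called higher, beside 16.2% of all genes. The difference between the lists was not tested.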

How the data were processed

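Single-colour bead arrays measured total RNA of 9 samples in 3 groups. The table of signals deposited by the authors holds an averaged intensity per probe, not normalised between arrays, with 29.2% to 32.5% of values below 0, so a background had been subtracted. Per the file headers, the authors paired every intensity with a detection p-value. A second deposited table of intensity values was quantile normalised and served as an alternative. The scanner software was not given in the labels or headers. Its columns bear sample names, while those of the signal table bear short codes. Each code was matched to the sample whose column ranks the probes alike (rank correlation 1, and at most 0.962 for any other sample), and 0 columns were left unassigned.

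Signals were corrected with normexp from the detection p-values (offset 16), log2 transformed and quantile normalised. A probe was kept if its detection p was under 0.05 on 3 arrays or more (22039 of 47322), and the brightest kept probe stood for each of 12245 genes. The 3 contrasts were fitted with limma 3.58.1 (lmFit, eBayes; R 4.3.3) over all 9 arrays (6 residual degrees of freedom, prior 5.51), with Benjamini-Hochberg adjustment over all genes. Figures and promoter searches used Python 3.11.15. Symbols came from the probe annotation, and promoters and gene coordinates from RefSeq. The members and lists were chosen with earlier results of these data known. Values on every array are given for MCM2, PCNA and RRM2, for the 2 members of each role with the smallest p in recovery minus control, for the largest rise and fall in each comparison and for called members. Other lists have up to 3 genes named. Of 15 members with 2 or more kept probes, the probes differed in sign for 3, 5 and 3 in the 3 comparisons, none of them called. Deviations from the group mean correlated from -0.11 to 0.10 between arrays of the same replicate number. For recovery and control arrays these correlations were 0.10, 0.05 and 0.05, and for pairs with a doxycycline array they were below 0. The number of arrays limits the precision. The alternatives were other background corrections, scalings, filters, probe rules, priors and weights, a replicate block, fits of 2 groups and leaving out each array.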

Additional observations from a re-analysis of the deposited data

How the results depend on the processing

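With recovery minus control, the count of 5 called members was 14 with array weights, 11 when only recovery and control arrays were fitted and 0 with a minimum log2 difference of 1, and lay between 2 and 10 when 1 array was left out. With array weights 30.2% of members were called lower, against 17.6% of all genes, and in the fit of 2 groups 25.6% against 15.9%. Its median of -0.17 was -0.15 with an offset of 50, -0.24 with median scaling and -0.13 with cyclic loess, and -0.19 to -0.15 when 1 array was left out. With doxycycline minus control, the count of 0 was 1 with an offset of 50, 1 with a trended robust prior and 13 with array weights, and 0 to 8 when 1 array was left out, with medians from -0.23 to -0.06. The 1 member called with that offset or that prior was lower (2.33%), against 0.727% and 0.621% of all genes called lower. With array weights 27.9% of members were called lower, against 10.7% of all genes. With recovery minus doxycycline, the count of 3 was 5 with an offset of 50 and 5 with a trended robust prior, each 4 lower and 1 higher. Of all genes 10.3% were called lower and 9.59% higher with that offset, and 10.1% and 9.21% with that prior. The count was 1 with median scaling, 15 with array weights, 1 when only those 2 groups were fitted and 0 with a minimum log2 difference of 1. Over both directions it was 1 to 6 when 1 array was left out. The 1 member called with median scaling or in the fit of 2 groups was lower (2.33%), against 7.88% and 5.90% of all genes called lower. With array weights 25.6% of members were called lower and 9.30% higher, against 21.4% and 18.7% of all genes. Its median of -0.003 was 0.031 without background correction, -0.071 with median scaling, 0.014 with probes detected on all 9 arrays, 0.014 without a filter, 0.031 with the authors' processed values and 0.037 with a mean over probes, and -0.066 to 0.067 when 1 array was left out. With the replicate block the counts in the 3 comparisons were 4, 0 and 2, all lower. These are 9.30%, 0% and 4.65% of members, against 7.76%, 0.163% and 7.86% of all genes called lower. The cause of these shifts was not tested. Correlations between arrays of the same replicate number stayed between -0.11 and 0.10, and the main fit did not pair them. With 3 arrays a group, differences smaller than the intervals given could not be detected.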
